A study of Drosophila melanogaster with 6 samples.

Results

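The genes described here encode the machinery that fuses synaptic vesicles with the presynaptic membrane: nSyb, Syb, Syx1A, Snap25, Snap24, Snap29, Rop, cpx, comt and Csp. They were chosen by gene name, with earlier results of these data known. All 10 were found among the 17137 gene names of the expression matrix, with 51 of its 36294 transcripts. RNA was sequenced from brains of third-instar Canton-S larvae, the wild-type strain of all 6 pools, collected 6 days after egg-laying. The 3 control pools (CTRL) came from larvae on regular food with added water, and the 3 alcohol pools (ETOH) from larvae on food with 5% ethanol. Further ethanol was added to the surface of the alcohol food every day, while the control food received no daily supplement. Each pool held about 30 brains, and no source says whether the pools were raised apart, so p-values measure only the spread between these pools.

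Neurons release transmitter when a SNARE protein on the vesicle coils together with SNARE proteins on the plasma membrane. In Drosophila the vesicle SNARE is neuronal Synaptobrevin, nSyb, and its partners on the plasma membrane are Syntaxin 1A and SNAP25. Rop, a Sec1/Munc18 protein, guides the assembly, Complexin (cpx) holds assembled complexes until calcium enters, the ATPase encoded by comt takes used complexes apart, and Cysteine string protein (Csp) is a vesicle chaperone. Syb, Snap24 and Snap29 encode related SNAREs that also work in cells other than neurons.

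Every value is an FPKM, a fragment number corrected for the length of the transcript and the mapped fragments in its pool. The pools held between 2719.5 and 4243.7 megabases of aligned sequence. Markers of neurons and glia were present in every pool, as the label of brain requires, with summed levels of 310.9 to 493.4 FPKM in control pools and 311.5 to 523.8 FPKM in alcohol pools for 8 neuronal genes. All 7 marker lists examined overlapped between the groups and none had a gene listed at 0. Genes of tissues next to the brain were also present, with summed levels of 65.3 to 499.4 FPKM for 8 muscle genes and of 710.4 to 6523 FPKM for 7 fat body genes over the 6 pools. Salivary gland genes had summed levels from 14140 FPKM in control pool 3 to 55970 FPKM in control pool 1.

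No change in the total expression of these genes was detected beyond the spread between pools. None of the 10 gene sums, the FPKM added over all transcripts of a gene, was called, against 1.22% of the 8247 gene sums tested. A call required more than a 2-fold change and an unadjusted p-value below 0.05 in limma's moderated test on log2(FPKM + 1), with the library-size covariate that Ballgown adds. The 2 groups overlapped for all 10 genes, while 6.21% of all gene sums tested did not overlap. No unadjusted p-value among the 10 was under 0.05, with the smallest, 0.182, for Syx1A. The median log2 fold change of the 10 sums was -0.07, beside -0.0005 over all gene sums.

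Among the SNARE genes, nSyb summed to 67.9, 73.9 and 123.7 FPKM in control pools 1 to 3 and to 86.4, 127.4 and 89.5 FPKM in alcohol pools 1 to 3. The means were 88.5 ± 30.6 and 101.1 ± 22.8 FPKM (SD, n = 3 each). Control pool 3 and alcohol pool 2 lay highest, and of the other 4 pools the 2 control pools lay below the 2 alcohol pools. The log2 fold change adjusted for the covariate was -0.13 ± 0.31 (SE, limma adjusted p = 0.998), and the plain difference of the log2 means was 0.22, so neither the size nor the sign was resolved. Because the covariate was lower in alcohol pools on average, adjusted and plain values can differ in this way.

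Syx1A, whose protein sits on the plasma membrane, had the lowest sum of the 10 genes, with 12.8, 15.4 and 17.7 FPKM in control pools and 12.6, 16.3 and 11.5 FPKM in alcohol pools. Its log2 fold change was -0.35 ± 0.23 (SE, limma adjusted p = 0.998). Snap25, its partner on the membrane, had 23.0, 19.6 and 40.3 FPKM against 31.7, 47.9 and 29.8 FPKM, with overlapping groups and a log2 fold change of 0.16 ± 0.41 (SE). Snap24 lay between 24.9 and 29.8 FPKM and Snap29 between 33.2 and 38.5 FPKM over the 6 pools.

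Syb, the synaptobrevin of general secretory traffic, had the highest mean sum and went against nSyb across the pools. It summed to 178.8, 151.4 and 125.6 FPKM in control pools and to 150.2, 114.0 and 148.2 FPKM in alcohol pools. Syb was lowest in control pool 3 and alcohol pool 2, the same pools in which nSyb was highest.

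Among the regulators, cpx showed the widest range, with 87.7, 59.1 and 116.4 FPKM in control pools and 84.6, 146.0 and 86.5 FPKM in alcohol pools. Csp lay between 89.7 and 123.5 FPKM, Rop between 43.5 and 54.9 FPKM and comt between 19.7 and 30.5 FPKM. For these 4 genes the ratio of the alcohol mean to the control mean was 1.21, 0.973, 1.01 and 1.05, in the order cpx, Csp, Rop and comt. None of these ratios stood out from the spread between pools of a group.

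**Figure D1:**
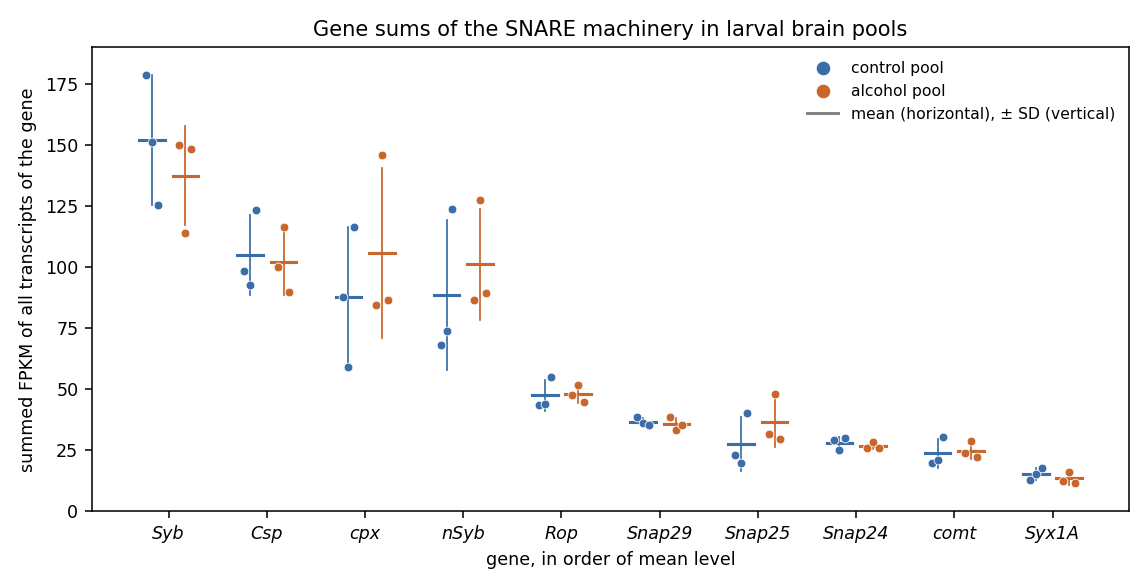
Summed FPKM of all transcripts of each gene (vertical axis, linear from 0) for the 10 genes in order of mean level, with 1 point per pool, control in blue and alcohol in orange, and the group mean and SD as lines. The control and alcohol points overlap for every gene, and nSyb reaches 123.7 FPKM in control pool 3 and 127.4 FPKM in alcohol pool 2.

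In order of mean level over the 6 pools, the genes were Syb, Csp, cpx, nSyb, Rop, Snap29, Snap25, Snap24, comt and Syx1A, and FPKM allows this order because it is scaled for length. Of the 9 neighbouring pairs, the higher gene led in 6 of 6 pools for nSyb over Rop (1.56-fold to 2.46-fold), Rop over Snap29 (1.13-fold to 1.56-fold) and comt over Syx1A (1.37-fold to 1.91-fold). The other 6 pairs changed places in at least 1 pool. The genes at the top were therefore not separated from each other, and nSyb exceeded cpx in 4 pools.

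Several of the sums were highest in the same pools. Control pool 3 and alcohol pool 2 had the highest sums for 7 of the 10 genes, namely nSyb, Syx1A, Snap25, Rop, cpx, comt and Csp, and the lowest for 1, Syb. The summed neuronal markers were highest in the same 2 pools, at 493.4 and 523.8 FPKM, against 310.9 to 372.4 FPKM in the other pools. The summed glia markers were also highest there, at 263.1 and 254.5 FPKM, against 174.4 to 240.9 FPKM elsewhere. The muscle markers were at 72.7 and 98.9 FPKM in these 2 pools, at 65.3 FPKM in control pool 2, and at 499.4, 379.5 and 350.2 FPKM in control pool 1, alcohol pool 1 and alcohol pool 3. The part of such tissue differences in the gene levels was not tested, and in pooled tissue fewer neurons and less RNA per neuron cannot be told apart. Over the 6 pools, log2 sums of nSyb correlated with those of comt (Pearson r = 0.968), Snap25 (0.945), Rop (0.933), cpx (0.843), Csp (0.822), Syx1A (0.624) and Snap24 (0.473) and ran against those of Syb (-0.956) and Snap29 (-0.731), given as a description of 6 points that share their libraries.

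**Figure D2:**
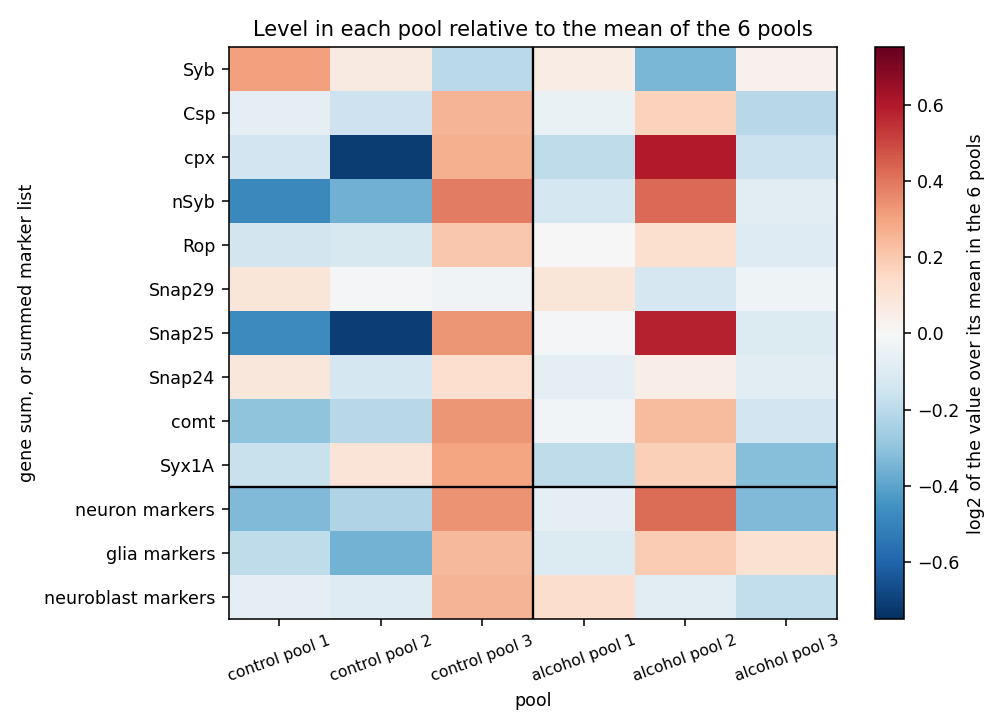
Level of each gene sum and of the neuron, glia and neuroblast marker sums in each pool, coloured by the log2 of its value over its own mean in the 6 pools, with control pools to the left of the vertical line. Red cells for 7 of the genes and for the neuron markers fall in control pool 3 and alcohol pool 2, where the row of Syb is blue. The glia markers were also highest in these 2 pools.

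The 5 genes outside the group whose sums most resembled the pattern of nSyb, among 6583 genes with a mean of at least 10 FPKM, were Ggamma30A (r = 0.996), which encodes a G protein gamma subunit, CG33543 (0.993), CG14591 (0.990), VhaM9.7-a (0.990), which encodes a subunit of the vacuolar proton pump, and CG34155 (0.989). Ggamma30A was at 223.0, 235.2 and 348.1 FPKM in control pools and at 263.6, 337.8 and 268.1 FPKM in alcohol pools, again highest in control pool 3 and alcohol pool 2.

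Single isoforms were called as different between control and alcohol-grown larvae, by unadjusted p-values, and most of the calls lay in nSyb. Of the 51 transcripts, 28 had a variance of FPKM above 1 and were tested, 6 were listed at 0 in every pool, and the remaining 17 were too low or too even to test. Of the 28, 2 were called as upregulated and 3 as downregulated (5 in all), against 3.85% of all 14645 transcripts tested. The called transcripts were nSyb-RG and the Snap25 isoform with the lower level (upregulated) and nSyb-RF, nSyb-RJ and nSyb-RA (downregulated). The filter takes the variance over all 6 pools, so a difference between the groups itself helps a transcript to pass. nSyb-RG and the Snap25 isoform had control means of only 0.003 and 0.18 FPKM, and nSyb-RF had an alcohol mean of 0.12 FPKM. The nSyb isoforms are estimated from partly shared reads of the same pools, so their calls are not separate differences. At the level of single transcripts 0 members had an adjusted p-value under 0.05 in limma, and 5 (the called ones) had an unadjusted p-value below 0.05. Differential transcript usage, the test of whether the isoforms of a gene change by different amounts, passed at an adjusted p-value under 0.05 for nSyb alone of 6 genes with at least 2 tested isoforms, against 1.05% of 3630 genes. nSyb had the smallest p-value of all 3630 genes (limma diffSplice adjusted p = 3.35e-06). The test takes the isoforms of a gene as independent, although they come from the same pools and partly shared reads. Its p-values can therefore be too small.

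The nSyb gene lies on the minus strand of chromosome arm 3L at 1630348 to 1637752 (dm6), and 8 isoforms were listed. The annotation gives all 8 the same 3 inner coding exons. They differ in the first exon, of which nSyb-RJ and nSyb-RK each have their own. They also differ in the exon that holds the start codon, in the last coding exon and in the length of the 3′ untranslated part. No exon of another annotated gene overlaps those of nSyb on either strand. Isoform names were assigned by position, and each of the 8 matched exactly 1 annotated isoform in its ends, exon number and length.

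nSyb-RG appeared almost entirely in alcohol pools. It was listed at 0.008, 0 and 0 FPKM in control pools 1 to 3 and at 42.8, 56.5 and 50.5 FPKM in alcohol pools 1 to 3. Every alcohol pool lay far above every control pool, and the alcohol values were close to each other (49.9 ± 6.9 FPKM, SD, n = 3). The log2 fold change on the log2(FPKM + 1) scale was 5.61 ± 0.25 (SE, limma adjusted p = 0.0754), with an unadjusted p-value of 5.22e-06. nSyb-RG encodes a protein of 192 residues, from 7 exons that total 3027 bases.

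The 2 isoforms that made up most of nSyb in control pools were nSyb-RJ and nSyb-RK. nSyb-RJ, which encodes 206 residues, was at 23.8, 32.7 and 79.8 FPKM in control pools and at 22.7, 30.9 and 19.8 FPKM in alcohol pools. The groups overlapped, and control pool 3 stood well above all others. Its log2 fold change of -1.34 ± 0.49 (SE, limma adjusted p = 0.999) was called, with an unadjusted p-value of 0.0442. The call was lost without control pool 1 (-1.31), control pool 3 (-0.47), alcohol pool 1 (-1.56) or alcohol pool 2 (-1.48). It was also lost without the covariate (-0.70), after rescaling to TPM (-0.32), with no variance filter (-1.16), with a mean of at least 1 FPKM as the filter (-1.27) and when the F-test was not moderated.

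nSyb-RK, which encodes 125 residues, was at 39.7, 34.9 and 34.6 FPKM in control pools and at 17.0, 34.8 and 16.4 FPKM in alcohol pools. Alcohol pool 2 lay within the control range, while alcohol pools 1 and 3 lay below it. The log2 fold change of -0.67 ± 0.46 (SE) did not pass the test (limma adjusted p = 0.999).

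The minor isoforms nSyb-RA and nSyb-RF, both of 183 residues, were lower in alcohol-grown larvae. nSyb-RF was at 1.08, 1.68 and 3.45 FPKM in control pools and at 0.090, 0.21 and 0.052 FPKM in alcohol pools, with no overlap (log2 fold change -1.82 ± 0.31, SE, limma adjusted p = 0.539). nSyb-RA was at 2.69, 4.29 and 5.02 FPKM and at 1.61, 3.09 and 1.56 FPKM, with overlapping groups. Its log2 fold change was -1.03 ± 0.35 (SE), and the call was lost without control pool 1 (-0.98), control pool 2 (-1.01), control pool 3 (-0.96), alcohol pool 1 (-0.98) or alcohol pool 3 (-0.94). It was also lost without the covariate (-0.70), after rescaling to TPM (-0.46), with no variance filter (-0.95), with a mean of at least 1 FPKM as the filter (-0.97) and when the F-test was not moderated.

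Of the other nSyb isoforms, nSyb-RE had a variance too low for the test. It was listed at 0, 0.000001 and 0 FPKM in control pools and at 1.47, 0.78 and 0.55 FPKM in alcohol pools, and it encodes the same 192 residues as nSyb-RG. nSyb-RI stayed between 0.44 and 1.11 FPKM, and nSyb-RH was listed at 0 in all pools.

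**Figure D3:**
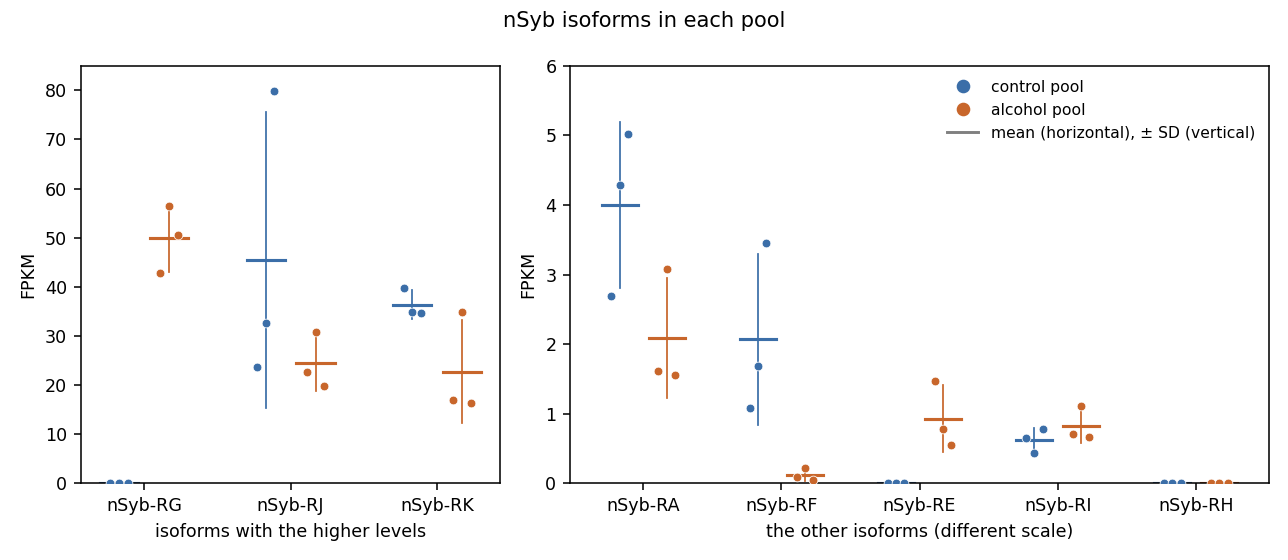
FPKM of the 8 nSyb isoforms in each pool (1 point per pool, control blue and alcohol orange, lines for group mean and SD), with the 3 isoforms of higher level on the left and the others on a smaller scale on the right. nSyb-RG is at 0.008 FPKM or less in control pools and between 42.8 and 56.5 FPKM in alcohol pools, while nSyb-RF lies higher in every control pool than in any alcohol pool.

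As shares of the nSyb sum, which do not depend on the depth of a pool, nSyb-RG was higher and nSyb-RJ and nSyb-RK were lower in every alcohol pool than in any control pool. nSyb-RG made up 0.012%, 0% and 0% of the sum in control pools and 49.5%, 44.4% and 56.4% in alcohol pools, a difference of 50.1 percentage points. nSyb-RJ made up 35.0%, 44.2% and 64.6% against 26.3%, 24.3% and 22.1%, a difference of -23.7 points. nSyb-RK made up 58.5%, 47.2% and 28.0% against 19.7%, 27.3% and 18.3%, a difference of -22.8 points. For all 3 isoforms the groups did not overlap, and each exact two-sided permutation p was 0.1, the smallest that 3 pools against 3 allow.

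In the control pools the balance of nSyb-RJ and nSyb-RK itself varied widely, with nSyb-RK ahead in pools 1 and 2 and nSyb-RJ ahead in pool 3. In the alcohol pools the lead changed as well, with nSyb-RJ ahead in pools 1 and 3 and nSyb-RK ahead in pool 2. There the shares of nSyb-RJ spanned 22.1% to 26.3% and those of nSyb-RK 18.3% to 27.3%.

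The isoforms group by the exon that carries the start codon, a grouping made after the values were seen and given without a test. In nSyb-RG, nSyb-RE, nSyb-RI and nSyb-RH the coding sequence begins in a 73-base exon at 1635937 to 1636009 (3L, dm6), whose coding part is 1635937 to 1635965. In nSyb-RJ, nSyb-RK, nSyb-RA and nSyb-RF this exon is skipped, and the start codon begins with the last 2 bases of the exon upstream, at 1636818 to 1636819. Isoforms with the 73-base exon held 0.97%, 0.60% and 0.63% of the nSyb sum in control pools and 52.0%, 45.8% and 57.8% in alcohol pools.

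By last coding exon, isoforms that end in the exon at 1632270 to 1632454 (nSyb-RG, nSyb-RA, nSyb-RE and nSyb-RF) held 6.83 ± 1.25% of the sum in control pools and 53.2 ± 5.6% in alcohol pools (SD, n = 3 each). nSyb-RJ alone ends in the exon at 1633252 to 1633505 and nSyb-RK alone in the exon at 1634897 to 1634907. The remaining ending, at 1633793 to 1633806 in nSyb-RI and nSyb-RH, held 0.73% and 0.81%.

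The estimates of these isoforms rest on different amounts of sequence of their own. nSyb-RK has 457 exonic bases and 3 introns that no other nSyb isoform shares, and nSyb-RJ has 42 such bases and 2 such introns. nSyb-RG has 0 unshared bases and 0 unshared introns, so its level was assigned from reads that fit other isoforms as well, and the part of that assignment in the difference was not tested. The 73-base exon of nSyb-RG is shared with nSyb-RE, nSyb-RI and nSyb-RH, each of which stayed at or below 1.47 FPKM in every pool. Those levels come from the same assignment of reads, and reads over the exon itself were not examined.

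**Figure D4:**
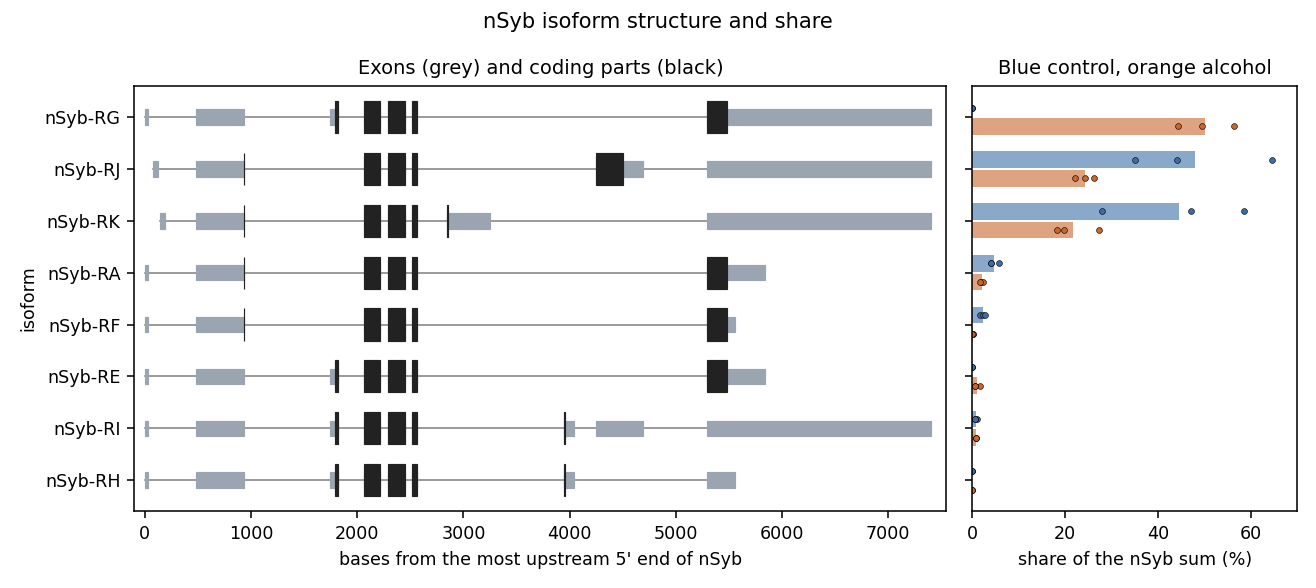
Left, exons (grey) and coding parts (black, taller) of the 8 nSyb isoforms by distance in bases from the most upstream 5′ end of the gene. Right, share of the nSyb sum in percent, with bars for the group mean and points for pools, control in blue and alcohol in orange, where nSyb-RG is at most 0.012% in control pools and between 44.4% and 56.4% in alcohol pools.

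Control pool 3 and alcohol pool 2, the pools highest in neuron and glia markers, were left out together after the values were seen. The difference in the share of nSyb-RG was then 52.9 points and its log2 fold change was 5.46. The differential transcript usage of nSyb then missed the threshold (limma adjusted p = 0.0510), in a fit with 2 pools in each group in which 0 of 3630 genes passed.

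Snap25 was the other gene with a called isoform. It lies on the plus strand of 3L at 24074180 to 24299205 (dm6), and its 2 isoforms have the same ends, exon number and length and both encode 212 residues. They differ in exon 4 of 8, a 49-base coding exon at 24161131 to 24161179 in Snap25-RA and at 24167763 to 24167811 in Snap25-RC. The positions in the matrix do not say which isoform is which, so they are named by level.

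The isoform with the lower level was at 0.28, 0.23 and 0.027 FPKM in control pools and at 4.63, 1.80 and 3.20 FPKM in alcohol pools. Every alcohol pool exceeded every control pool (log2 fold change 2.01 ± 0.39, SE, limma adjusted p = 0.592). The isoform with the higher level was at 22.7, 19.4 and 40.2 FPKM against 27.1, 46.1 and 26.6 FPKM, with overlapping groups.

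As a share of Snap25, the isoform with the lower level made up 1.24%, 1.19% and 0.068% in control pools and 14.6%, 3.77% and 10.8% in alcohol pools, a difference of 8.88 points (exact permutation p = 0.1). Alcohol pool 2, with the highest Snap25 sum, had the smallest of the 3 alcohol shares. Differential transcript usage of Snap25 did not pass after adjustment (limma diffSplice adjusted p = 0.280, from an unadjusted p-value of 0.0137). An unadjusted p-value under 0.05 in this test was reached by 2 of the 6 genes tested here, nSyb and Snap25, against 11.5% of the 3630 genes.

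Over all transcripts with at least 5% of their gene in either group, in the 8 genes with 2 or more isoforms, the groups did not overlap in share for 5 of 22, against 9.98% over all such transcripts of the matrix. All 5 belonged to nSyb and Snap25, and the shares within a gene add up, so they are not 5 separate differences. The filter of 5% in either group itself favours separation. nSyb-RG, the Snap25 isoform with the lower level and Syb-RE reached it through the alcohol mean only, and Syb-RE overlapped. At the level of FPKM, the groups did not overlap for 5 of the 28 tested transcripts, against 7.72% of all transcripts tested. These included several isoforms of the same gene, for nSyb and for Syb, so they are not separate differences either. The variance filter, too, can admit a transcript through the difference between the groups.

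**Figure D5:**
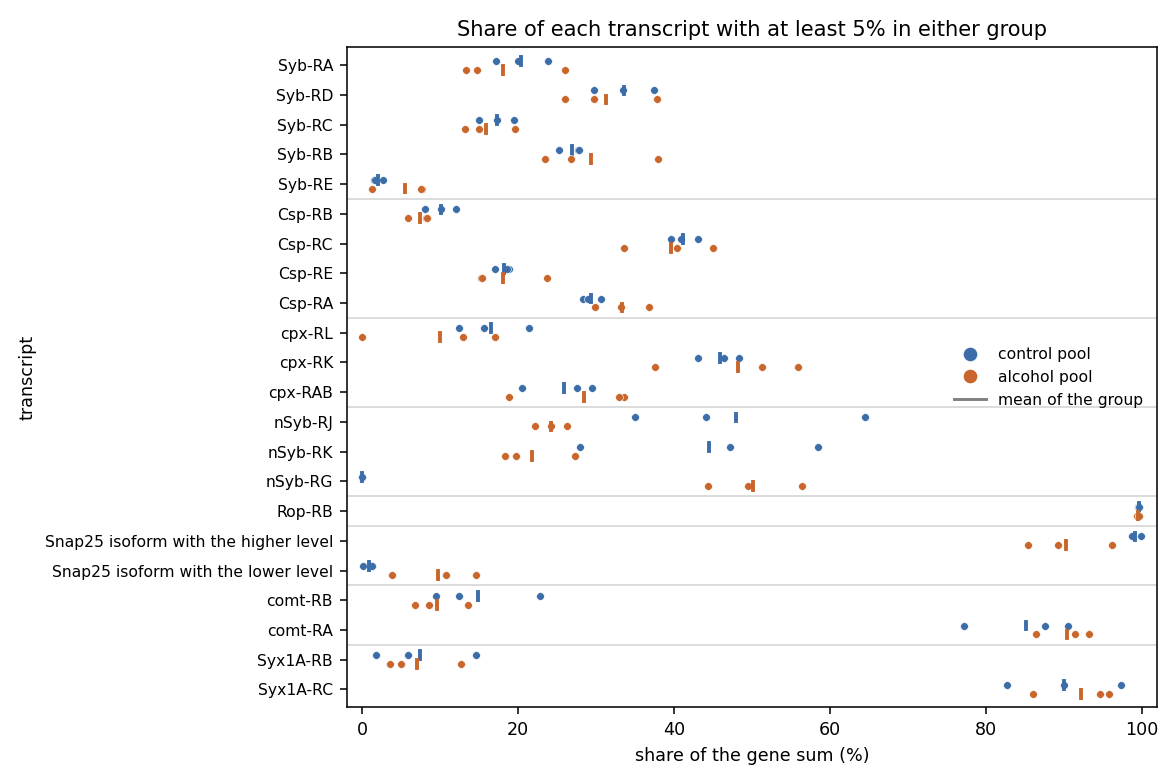
Share of the gene sum in percent in each pool for the 22 transcripts with at least 5% in either group, ordered by gene, with points for pools (control blue, alcohol orange) and a short line for the group mean. The points separate by group for nSyb-RJ, nSyb-RK, nSyb-RG and both Snap25 isoforms and mix for the other 17.

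Syb, at 10249435 to 10252417 on the minus strand of 2R (dm6), was spread over 5 isoforms. Syb-RD and Syb-RB, which end in the same last coding exon and encode 109 and 132 residues, held 33.5 ± 3.9% and 26.9 ± 1.4% of the sum in control pools and 31.2 ± 6.0% and 29.4 ± 7.6% in alcohol pools (SD, n = 3 each). Syb-RD was at 67.0, 50.6 and 37.3 FPKM in control pools and at 39.1, 34.0 and 56.2 FPKM in alcohol pools. Syb-RB was at 49.4, 42.1 and 31.7 FPKM against 56.9, 26.7 and 39.6 FPKM. Neither separated the groups.

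Syb-RA was at 30.6, 30.3 and 30.0 FPKM in control pools and at 20.0, 29.6 and 21.7 FPKM in alcohol pools. Syb-RC was at 26.9, 26.1 and 24.5 FPKM against 22.6, 22.3 and 19.6 FPKM. The alcohol values lay below all control values for both, but the log2 fold changes of -0.38 ± 0.29 and -0.17 ± 0.22 (SE) did not pass the test (limma adjusted p = 0.999 for each). Their shares of Syb overlapped.

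Syb-RE, the only Syb isoform with a first exon of its own, was at 4.84, 2.35 and 2.09 FPKM in control pools and at 11.5, 1.40 and 11.2 FPKM in alcohol pools. Alcohol pools 1 and 3 were high and alcohol pool 2 was the lowest of all pools, and the log2 fold change of 1.37 ± 0.95 (SE) was not called. Without alcohol pool 2 it was 2.07 and called (limma adjusted p = 0.593, from an unadjusted p-value of 0.00307), and Syb then also passed the test of transcript usage.

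cpx, at 4280221 to 4304604 on the plus strand of 3R (dm6), had the most listed isoforms, 21, of which 5 were at 0 in every pool. The main one, cpx-RK, encodes 83 residues and was at 42.4, 27.4 and 50.2 FPKM in control pools and at 47.3, 54.8 and 44.4 FPKM in alcohol pools. cpx-RAB, which encodes 157 residues, was at 18.0, 16.3 and 34.4 FPKM against 28.5, 48.1 and 16.3 FPKM. Both overlapped between the groups, and their mean shares were 45.9% and 25.8% in control pools and 48.2% and 28.5% in alcohol pools.

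cpx-RL, which encodes 128 residues, was at 18.8, 7.35 and 18.1 FPKM in control pools and at 0, 24.8 and 11.1 FPKM in alcohol pools. It was listed at 0 in alcohol pool 1 alone, a pool in which cpx as a whole was at 84.6 FPKM. Its log2 fold change of -1.76 ± 1.70 (SE) carried the largest error of all 28 tested transcripts. The other 18 isoforms of cpx each held less than 5% of the sum in both groups and stayed at or below 6.79 FPKM in every pool. The test of transcript usage did not pass for cpx (limma diffSplice adjusted p = 0.985).

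Csp, at 22267382 to 22273745 on the plus strand of 3L (dm6), was carried by 4 isoforms in both groups. Csp-RC, with 228 residues, was at 40.3, 36.7 and 53.2 FPKM in control pools and at 33.5, 47.0 and 40.3 FPKM in alcohol pools. Csp-RA, with 223 residues, was at 30.2, 26.3 and 35.8 FPKM against 33.2, 42.9 and 26.8 FPKM. Csp-RE, with 244 residues, was at 18.6, 17.2 and 21.1 FPKM against 23.7, 17.7 and 13.8 FPKM. None of the 3 separated the groups.

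Csp-RB, with 249 residues, came closest to a change, at 7.97, 11.2 and 12.4 FPKM in control pools and 8.23, 6.84 and 7.42 FPKM in alcohol pools. The groups overlapped, and its log2 fold change was -0.65 ± 0.26 (SE, limma adjusted p = 0.999), with an unadjusted p-value of 0.0562. Csp-RD and Csp-RF stayed at or below 1.68 FPKM.

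In the other 5 genes 1 isoform made up most of the sum in both groups. Syx1A lies on the minus strand of 3R at 24101600 to 24105763 (dm6). Its main isoform, Syx1A-RC, a transcript of a single exon, was at 11.5, 12.7 and 17.2 FPKM in control pools and at 12.1, 15.4 and 9.93 FPKM in alcohol pools, or 90.0 ± 7.3% and 92.2 ± 5.3% of Syx1A (SD, n = 3 each). Syx1A-RB, with 1 intron and 296 residues in place of 291, was at 0.74, 2.25 and 0.32 FPKM against 0.44, 0.81 and 1.46 FPKM. Its share reached 14.6% in control pool 2 and 12.6% in alcohol pool 3. Of the 4164 exonic bases of Syx1A, 447 also lie in exons of eIF4EHP on the same strand, and reads there cannot be told apart by strand.

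Rop lies on the minus strand of 3L at 4136359 to 4138996 and comt on the plus strand of X at 13259021 to 13262488 (dm6). Rop-RB made up 99.6% of Rop in both groups, at 43.3, 43.8 and 54.8 FPKM in control pools and 47.4, 51.7 and 44.6 FPKM in alcohol pools. comt-RA, which encodes the same 745 residues as comt-RB, was at 15.2, 18.4 and 27.6 FPKM in control pools and at 21.9, 24.7 and 20.6 FPKM in alcohol pools. comt-RB was at 4.49, 2.59 and 2.88 FPKM against 2.04, 3.89 and 1.48 FPKM. The groups overlapped for both comt isoforms, and the test of transcript usage did not pass (limma diffSplice adjusted p = 1.0).

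Snap24, on the minus strand of 3R at 9761305 to 9763150, and Snap29, on the minus strand of 2R at 23843483 to 23844763 (dm6), have 1 listed isoform each. Snap24-RA was at 29.0, 24.9 and 29.8 FPKM in control pools and at 26.0, 28.4 and 25.9 FPKM in alcohol pools. Snap29-RA, which encodes a SNARE of endosomes and autophagosomes, was at 38.5, 36.0 and 35.6 FPKM against 38.5, 33.2 and 35.3 FPKM. The groups overlapped for both, with log2 fold changes of -0.05 ± 0.17 and 0.04 ± 0.15 for their gene sums (SE).

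The rest of the SNARE family showed no call in its gene sums. Of 24 further SNARE and Sec1/Munc18 genes of the secretory and endosomal pathways, 21 were listed by name and 17 were tested, with 0 upregulated, 0 downregulated (1.22% of all gene sums were called) and 0 at an unadjusted p-value under 0.05. Their median log2 fold change was 0.09. Among their 26 tested transcripts 1, of Sec22, was called as upregulated, a share equal to the 3.85% over all transcripts.

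Of 21 gene names for proteins that act on the same fusion step, such as priming factors, the calcium sensor Syt1 and the partners of comt and Csp, 19 were listed and 17 tested, with 0 called, against 1.22% of all gene sums, and a median log2 fold change of -0.02. Only Rbp, which encodes the RIM-binding protein of the active zone, had an unadjusted p-value under 0.05. Its sum was 2.19, 4.35 and 3.91 FPKM in control pools and 8.96, 10.5 and 7.70 FPKM in alcohol pools, with no overlap. The log2 fold change was 0.91 ± 0.26 (SE, limma adjusted p = 0.998), just under the fold threshold, and the unadjusted p-value was 0.0181. As in all main fits, it is on the log2(FPKM + 1) scale, which shrinks changes at low FPKM. The group means of Rbp were 3.48 FPKM in control pools and 9.04 FPKM in alcohol pools. Among the 43 tested transcripts of this list 1, of Rim, was called as downregulated, against 3.85% over all transcripts.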

How the data were processed

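The submitters' processing notes name FastQC 0.11.9, Trimmomatic 0.39, HISAT2 2.2.0 on dm6, SAMtools and StringTie 2.1.4. The authors deposited the FPKM of each transcript and its read coverage (a signal) in each pool. The deposited table of fold changes, p-values and q-values holds the authors' own comparison and was not used. The aligned bases come from the ratio of coverage to FPKM. No read counts were analysed here, so the precision is the spread between pools. Gene sums add FPKM over the transcripts of a gene name. limma 3.58.1 in R 4.3.3 tested log2(FPKM + 1) for features with a variance above 1, with Ballgown's library-size covariate (sum of log2 values below the 75th percentile of a pool, over transcripts past the filter), and p-values were adjusted by Benjamini-Hochberg over all features. The groups explained 40.3% of the variance of the covariate, which widens standard errors 1.29-fold. Shares were compared by the exact permutation test over 20 assignments of the pools. Python 3.11.15, pandas 2.3.3, numpy 2.4.6 and matplotlib 3.10.9 were used. Isoforms were matched by position, strand, exon number and length to the Ensembl annotation, 51 of 51, with 49 to exactly 1. The tests were tested on simulated data in which isoforms were drawn independently of each other. The members and lists were chosen with earlier results of these data known. Named are all members, transcripts with at least 5% of their gene or called with each pool's value, genes of the other lists that were called or had an unadjusted p-value under 0.05, and the 5 genes most like nSyb. Each pool was left out in turn, and other fits dropped the covariate, used a pseudocount of 0.1, replaced the variance filter by a mean of 1 FPKM or more or by none, rescaled pools to 1000000 (TPM), took the ordinary F-test, or added the replicate number as a block.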

Additional observations from a re-analysis of the deposited data

How the results depend on the processing

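The count of 5 called transcripts fell to 3 without the covariate, with a mean of at least 1 FPKM in place of the variance filter, with the ordinary F-test, and without control pool 3 and alcohol pool 2 together (an alternative added after seeing the data), and it ranged from 3 to 5 when each pool was left out. nSyb-RG was called in every one of these fits. Without control pool 3 and alcohol pool 2 together, the call of nSyb-RF was lost (log2 fold change -1.38) and Syb-RE was called (2.07). No gene sum of the 10 was called under any alternative. Differential transcript usage passed for 1 to 2 genes when each pool was left out (Syb beside nSyb without alcohol pool 2) and for 0 without control pool 3 and alcohol pool 2. Of the genes of the fusion step, Rbp became a call, 1 in place of 0, without the covariate, with a pseudocount of 0.1 and after rescaling to TPM, and the count ranged from 0 to 1 when each pool was left out. The sign of the log2 fold change turned in 35 of the 150 comparisons of gene sums with an alternative and in 58 of those of transcripts, none of them called, and the causes were not tested. The 3 shares of nSyb kept their direction in every alternative. nSyb-RG ranged from 46.9 to 52.9 points, nSyb-RJ from -30.1 to -15.3 and nSyb-RK from -33.8 to -15.8.

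Same-numbered pools did not deviate together, with correlations of -0.010, -0.183 and -0.239, and 0 of 6 pools correlated best with their own number, so the numbers were not taken as pairs. With the replicate block and the covariate, which leaves 1 residual degree of freedom, 1 transcript (nSyb-RG) was called and 0 genes passed for transcript usage (nSyb adjusted p = 0.224). With the replicate block and no covariate, 3 transcripts were called, nSyb passed (adjusted p = 3.29e-04), and Rbp was called, 1 in place of 0. The FPKM give no counting error, so isoforms near 0 cannot be told from absent ones.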
